A study of Homo sapiens with 6 samples.

Results

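The cytosolic ribosomal proteins are the proteins that, together with ribosomal RNA, build the large and small subunits of the ribosome in the cytoplasm. The genes were chosen by symbol alone: RPL or RPS followed by a number and the usual suffixes, plus RPL36AL, RPLP0, RPLP1, RPLP2 and RPSA. The rule found 85 of the 53826 entries of each table, of which 53 were large subunit (RPL) and 32 were small subunit (RPS) genes. FAU, which encodes RPS30 as a fusion to a ubiquitin-like sequence, was not matched by the rule and is given separately. Mitochondrial ribosomal proteins and ribosomal protein kinases were not matched.

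The data were RNA-seq of A549, a human lung adenocarcinoma cell line of epithelial origin. A549-TIPARP cells stably overexpressed TIPARP, a mono-ADP-ribosyltransferase, from a pMXs retroviral vector, and A549-GFP cells stably carried GFP (green fluorescent protein) from the same vector as the control. There were 3 libraries per line, numbered 1 to 3 in the titles as experiments. Both lines derive from A549 by transduction, and whether they are pools or clones is not given in the sources used here. The labels do not say whether the libraries came from separate cultures, so the p-values below measure only the spread between these libraries.

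Ribosomal protein mRNAs are among the most abundant messages of a growing cell, and most of the proteins are needed in equal numbers in each ribosome. Their mRNAs begin with a terminal oligopyrimidine tract (5′ TOP), a C at the first transcribed base followed by a run of C and T. The tract lets the cell switch their translation as a group through the kinase mTOR and the RNA-binding protein LARP1. Because that control acts on translation, mRNA levels alone do not show how much ribosomal protein was made.

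The tract is shown for the stalk members, for members of the paralog pairs compared below and for RPL3, RPL13A and RPS6, whose values are also described. Each line gives bases 10 before to 20 from the annotated first base in RefSeq, in the build GRCh38.p14, 5′ to 3′. Capitals mark a run of pyrimidines that begins with C and starts within 5 bases of the first base.
RPLP0 (chr12:120201092-120201121, minus strand): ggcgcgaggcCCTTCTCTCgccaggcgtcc
RPLP1 (chr15:69452808-69452837, plus strand): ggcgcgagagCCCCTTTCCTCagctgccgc
RPLP2 (chr11:809957-809986, plus strand): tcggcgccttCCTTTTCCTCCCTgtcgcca
RPL3 (chr22:39319604-39319633, minus strand): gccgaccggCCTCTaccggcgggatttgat
RPL13A (chr19:49487598-49487627, plus strand): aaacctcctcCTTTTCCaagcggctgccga
RPS6 (chr9:19380217-19380246, minus strand): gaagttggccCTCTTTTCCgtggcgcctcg
RPL22 (chr1:6199576-6199605, minus strand): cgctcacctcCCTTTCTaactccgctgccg
RPL22L1 (chr3:170870176-170870205, minus strand): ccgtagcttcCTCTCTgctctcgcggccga
RPL26 (chr17:8383174-8383203, minus strand): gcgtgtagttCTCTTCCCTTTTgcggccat
RPL26L1 (chr5:172958719-172958748, plus strand): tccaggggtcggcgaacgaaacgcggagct
RPL36A (chrX:101391001-101391030, plus strand): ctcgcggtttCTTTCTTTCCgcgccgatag
RPL36AL (chr14:49620607-49620636, minus strand): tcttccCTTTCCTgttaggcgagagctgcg
RPL39 (chrX:119791611-119791640, minus strand): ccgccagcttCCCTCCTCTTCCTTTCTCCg
RPS27 (chr1:153990752-153990781, plus strand): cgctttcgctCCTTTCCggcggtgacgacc
RPS27L (chr15:63157458-63157487, minus strand): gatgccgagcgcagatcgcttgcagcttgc
RPL7L1 (chr6:42879606-42879635, plus strand): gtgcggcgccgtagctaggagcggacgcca

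The run of RPL39 spanned 19 bases and that of RPL3 only 5, and no such run stood at the annotated starts of RPL26L1, RPS27L and RPL7L1. RefSeq promoters (250 bases before to 50 after the annotated start) were at hand for 67 of the analysed members. A C followed by 4 pyrimidines stood exactly at the first base in 43 of them, 64.2%, against 5.44% of the 10344 analysed genes with a promoter and 4.04% of all 27305 promoters. Allowing a start within 5 bases raised this to 52 members, 77.6%, against 23.0% and 21.1%. Other promoter letters were searched for description. CCGGAAG, the core bound by ETS factors, was found on either strand in 34.3% of the members and 19.5% of analysed genes. AAGATGGC, the YY1 core, stood on either strand in 10.4% against 5.46%, and it can share its AAG with the ETS letters. GGGCGG, the GC box, stood on either strand in 53.7% against 70.1%. TATAAA, searched on the gene's strand between 40 and 15 bases upstream, stood in 4.48% against 1.67%.

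The members also shared features of gene structure that the rule did not use. They lay on 21 chromosomes, with 12 on chromosome 19 and 9 on chromosome 3. In GENCODE 44 (GRCh38) the median transcript of the analysed members was 785 bases long, against 3001 for all analysed genes, and had 5 exons against 8. A small nucleolar RNA gene, which guides modification of ribosomal RNA, lay inside 28 of the 83 analysed members, 33.7%, against 1.73% of all analysed genes. RPL4 held 5 such genes.

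All values are TPM, in which reads are scaled by transcript length and library total, so levels of different genes may be compared. The authors deposited log2 TPM with no read counts, and the depth of each library is unknown. A gene was analysed where its TPM exceeded 2 in at least 1 of the 6 libraries, which left 13181 genes. Of the 85 members, 83 passed, 51 of the large and all 32 of the small subunit. RPL3L, used in heart and skeletal muscle, and RPL10L, used in testis, were listed at a log2 value of 0 in all 6 libraries and were not analysed.

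TIPARP itself stood at 6.79, 11.4 and 3.68 TPM in A549-GFP and at 131, 90.5 and 123 TPM in A549-TIPARP, which fits the labels of all 6 libraries. The deposited entry does not separate the transgene from the endogenous gene. All 10 A549 markers were present, but not at even levels. Their sum ran from 25292 to 42011 TPM in A549-GFP, lowest in replicate 2, where KRT8 and KRT18 stood at 3855 and 4176 TPM, and from 38181 to 40021 TPM in A549-TIPARP. KRT19 was wholly higher in A549-TIPARP, at 4.57, 2.54 and 5.36 TPM against 19.2, 18.98 and 10.9 TPM, AKR1B10 was wholly lower, and neither was called. Their part in the results below was not tested. Of the other markers, 4 of 4 endothelial markers and the leukocyte markers PTPRC and CD3E were listed at 0 in all libraries, and CD14 and LYZ reached at most 5.63 and 7.25 TPM. A listed 0 may not mean absence in these tables, since EIF4E, a gene of nearly every cell, was also listed at 0 in all 6 libraries. The summed leukocyte markers ranged from 3.73 to 10.9 TPM in A549-GFP and from 6.72 to 12.5 TPM in A549-TIPARP. Of 6 fibroblast markers 4 were at 0, and their sum was 1.09 to 1.44 TPM in A549-GFP and 1.64 to 2.56 TPM in A549-TIPARP. The library of A549-GFP replicate 2 stood apart: it held the highest value of the 6 libraries for 52% of analysed genes, and the median gene was 0.38 higher in it, on the log2 scale, than in the mean of the other A549-GFP libraries. The shares, the ratios, the member counts and the folds of 39 named members were also computed without it, as were those of the gene lists and combined entries, the last as values with no test. Of the 39 named members, 35 had log2 fold changes that moved by over 1.5 times or changed sign without it. The same held for 21 without A549-GFP replicate 1, 24 without A549-GFP replicate 3, 10 and 8 without A549-TIPARP replicates 1 and 2, and 21 without A549-TIPARP replicate 3. The sign turned for 9, 5 and 2 of them without A549-GFP replicates 1, 2 and 3, and for 1, 0 and 7 without the A549-TIPARP replicates in the same order.

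The first comparison asked how much of the measured mRNA was ribosomal protein mRNA in each line. Members took 15.7%, 16.9% and 18.9% of the TPM of A549-GFP libraries 1, 2 and 3, and 17.7%, 17.7% and 19.6% in A549-TIPARP. The A549-TIPARP values thus lay inside or just above the range of A549-GFP. The mean share was 17.2% ± 1.60 in A549-GFP and 18.3% ± 1.08 in A549-TIPARP (SD, n = 3 each), a difference of 1.15 percentage points that did not exceed the spread (exact permutation test, two-sided, p = 0.4, and 0.4 after adjustment over 3 share tests). A test of 3 libraries against 3 cannot give a p below 0.1. The difference was 0.429 points without A549-GFP replicate 1, 2.01 points without A549-GFP replicate 3 and 0.531 points without A549-TIPARP replicate 3. As a share, it cannot be told apart from less RNA of other genes, nor, in bulk RNA, can a change per cell be told apart from a change in the mix of cells.

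**Figure D1:**
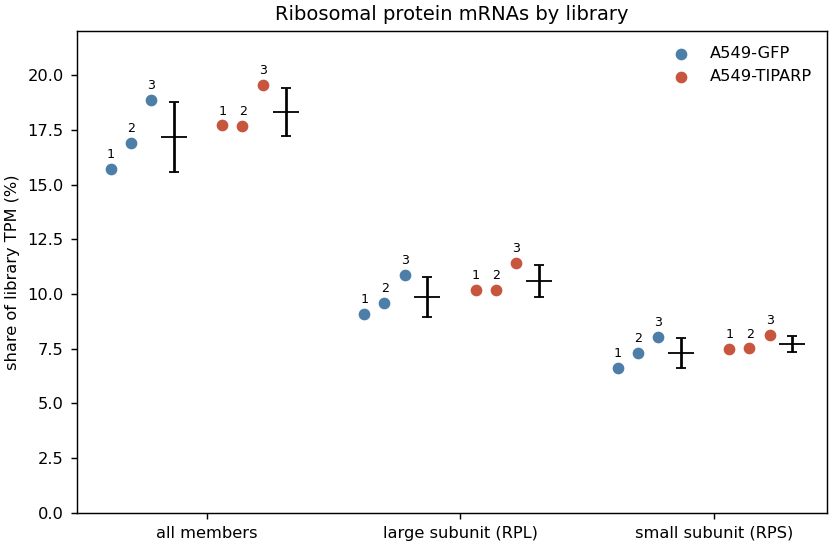
Share of library TPM (y axis, %) held by all members and by the members of each subunit. Each point is 1 library with its replicate number above it, and the black bars are the mean ± SD of 3 libraries per line. The A549-GFP shares of all members span 15.7% to 18.9% and overlap the A549-TIPARP shares of 17.7% to 19.6%.

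In both subunits A549-GFP replicate 1 held the lowest share and A549-TIPARP replicate 3 the highest. Large subunit members took 9.07%, 9.60% and 10.9% in A549-GFP and 10.2%, 10.2% and 11.4% in A549-TIPARP. Small subunit members took 6.63%, 7.30% and 8.02% in A549-GFP and 7.51%, 7.52% and 8.13% in A549-TIPARP. The differences were 0.753 and 0.402 points (exact permutation tests, two-sided, p = 0.4 each). They were 0.368 and 0.0604 points without A549-GFP replicate 1, 1.26 and 0.754 points without A549-GFP replicate 3, and 0.334 and 0.197 points without A549-TIPARP replicate 3. The log2 ratio of large to small subunit TPM, which does not depend on the library total, was 0.45, 0.40 and 0.44 in A549-GFP and 0.44, 0.44 and 0.49 in A549-TIPARP. The means differed by 0.028 on the log2 scale (exact permutation test, two-sided, p = 0.5), by 0.012 without A549-GFP replicate 2 and by 0.0096 without A549-TIPARP replicate 3.

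A single entry named MIR6723 alone took between 5.52% and 9.78% of the library TPM, and all small RNA and mitochondria-like entries between 8.66% and 13.9%. Without these entries in the library total the difference in member share was 1.49 points (p = 0.4 in the exact permutation test). It was 0.804 and 2.53 points without A549-GFP replicates 1 and 3, and 0.477 points without A549-TIPARP replicate 3. FAU stood at 817, 916 and 1104 TPM in A549-GFP and 959, 1006 and 962 TPM in A549-TIPARP. The lines thus overlapped for FAU.

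The second comparison took each member in turn. No member was called at an adjusted p under 0.05 (limma on log2(TPM + 1), Benjamini-Hochberg over all 13181 genes), where 2 genes in all, 0.0152%, were called. None reached an unadjusted p under 0.05 either, against 3.85% of all analysed genes, and the lowest adjusted p among members was 0.994. The A549-TIPARP libraries all lay above the A549-GFP libraries for 2 members, RPL7A and RPL24, 2.41% of the 83, where 5.36% of all analysed genes did so. They all lay below for no member, against 3.54% of all genes. No member passed 2-fold in either direction, against 1.96% of all analysed genes.

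The mean log2 TPM was higher in A549-TIPARP for 74 of the 83 members and lower for 9, while it was higher for 40.1% of all analysed genes. It was higher for 45 of 51 large and 29 of 32 small subunit members. The median log2 fold change was 0.09 over the members, between -0.19 (RPS27L) and 0.39 (RPL13A), against -0.066 over all analysed genes and -0.043 over the 1282 other genes above 100 TPM. Members share each library's total and its preparation, so their directions are not independent of each other. These values moved with single libraries. Without A549-GFP replicate 1 the count was 50 of 83 with a median of 0.042, and without A549-GFP replicate 3 it was 76 with a median of 0.19. Without A549-TIPARP replicate 3 the count was 59 with a median of 0.065, and 44.4% of all analysed genes had a higher mean. Without A549-GFP replicate 2 it was 73 with a median of 0.076, while all analysed genes turned upward, to 56.9% with a higher mean and a median of 0.047.

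**Figure D2:**
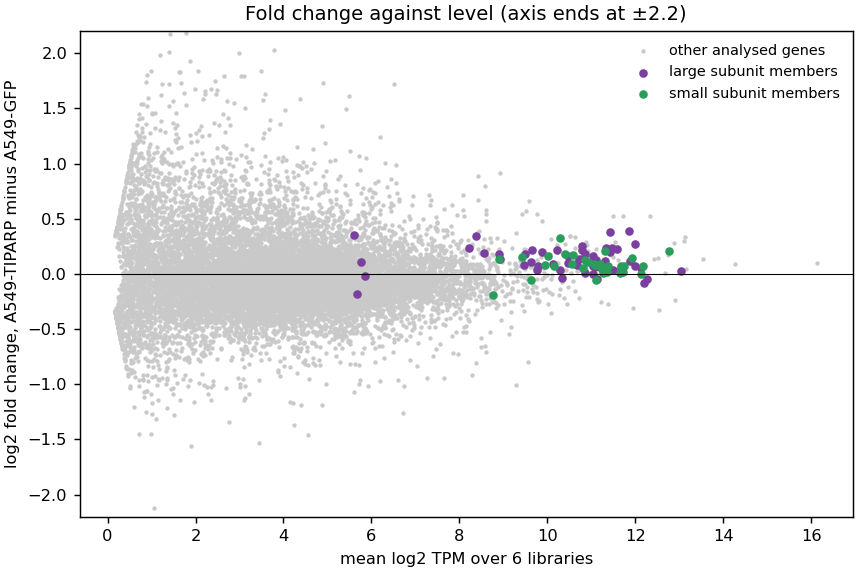
Log2 fold change (y axis, A549-TIPARP minus A549-GFP) against mean log2 TPM of 6 libraries (x axis) for the analysed genes. Grey points are other genes, purple and green points the large and small subunit members, and 9 genes lie beyond the y axis. The members sit at the right, near the line at 0, between -0.19 and 0.39.

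The members varied less between libraries of a line than most genes. The median SD within a line was 0.18 on the log2 scale, against 0.33 over all analysed genes and 0.24 over other genes above 100 TPM. The median standard error of a member's fold change in limma was 0.17. Single libraries stood out over the members. A549-GFP replicate 1 was the lowest of the 6 libraries for 48 of 83 members (14.5% of all analysed genes), and A549-GFP replicate 2 was the lowest for 32 (13.1% of all genes). A549-TIPARP replicate 3 was the highest for 46 (11.4% of all genes), and A549-GFP replicate 3 was the highest for 24 (4.19% of all genes). A549-TIPARP replicates 1 and 2 were the lowest for none (4.63% and 5.81% of all genes). Across the 83 members, the fold change was only weakly related to transcript length (Pearson r = 0.095) or GC content (r = -0.13), a description over genes of the same 6 libraries.

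**Figure D3:**
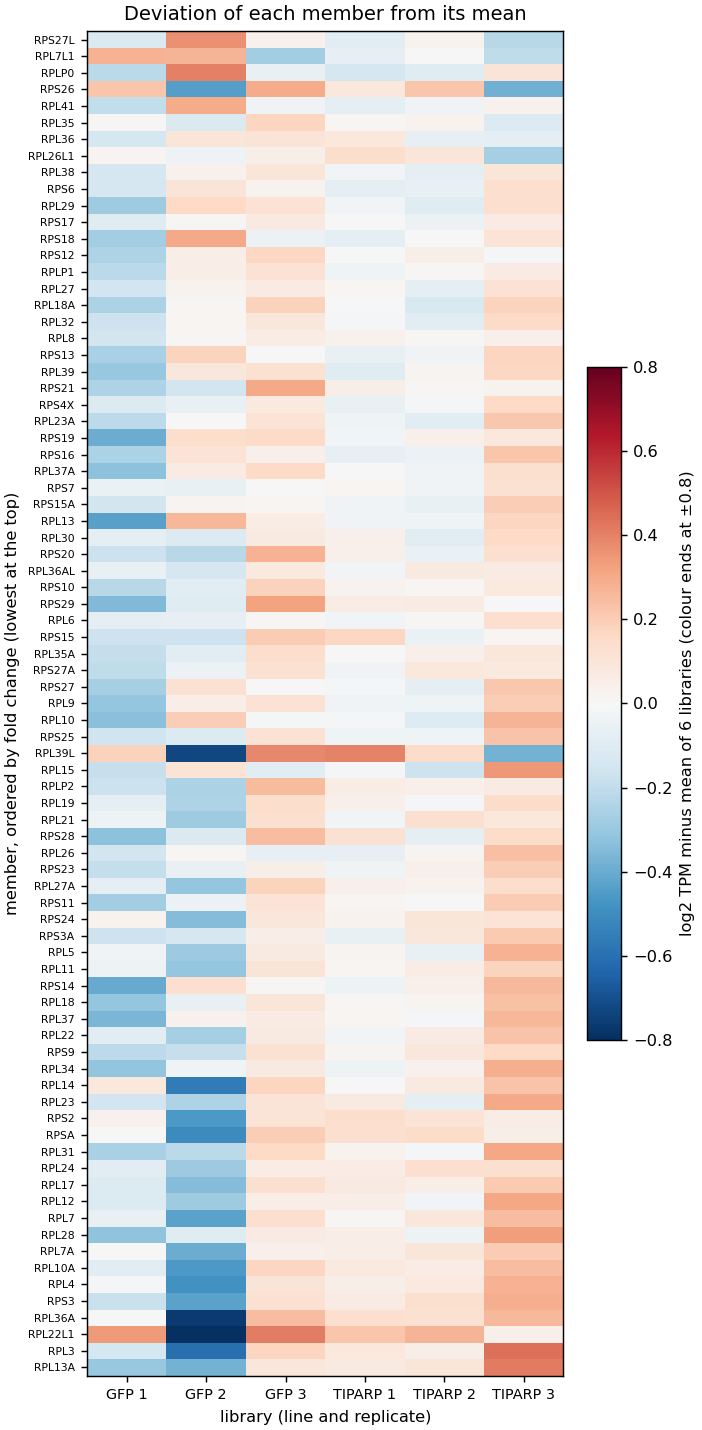
Deviation of 81 of the 83 analysed members (y axis) from its mean log2 TPM over the 6 libraries (x axis), ordered by fold change with the lowest at the top. Blue is below and red above the mean. A549-GFP replicate 1 is blue for most members, A549-GFP replicate 2 holds the deepest blue (RPL22L1, RPL36A) and A549-TIPARP replicate 3 is mostly red.

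The stalk of the large subunit, built of RPLP0 and pairs of RPLP1 and RPLP2, recruits and activates the GTPases that drive translation. RPLP1 was the most abundant member of all, at 7259.7, 8766 and 9146 TPM in A549-GFP and 8251, 8474 and 8840.5 TPM in A549-TIPARP. Its A549-TIPARP values lay inside the A549-GFP range, with a log2 fold change of 0.029 (limma 95% interval -0.32 to 0.38). RPLP2 stood at 3362, 3185 and 4518 TPM in A549-GFP and 3953, 3904 and 3973 TPM in A549-TIPARP, again inside the A549-GFP range, and its log2 fold change of 0.11 was 0.017 without A549-GFP replicate 2. RPLP0, the scaffold that is often used as a reference gene, stood at 4036, 6215 and 4500.1 TPM in A549-GFP and 4274, 4388 and 5045 TPM in A549-TIPARP. Its high value in A549-GFP replicate 2 set its sign: the log2 fold change was -0.085 (interval -0.52 to 0.35) with that library and 0.097 without it. Together the 3 stalk members held 9.35%, 10.8% and 9.64% of the member TPM in A549-GFP and 9.33%, 9.50% and 9.14% in A549-TIPARP.

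RPS2, which lines the path of mRNA into the small subunit, stood at 7118, 5054 and 7499 TPM in A549-GFP and 7637, 7497 and 7248 TPM in A549-TIPARP. It was low in A549-GFP replicate 2, and its log2 fold change was 0.21, and 0.030 without that library. RPL41, the shortest ribosomal protein, stood at 4301, 6047 and 4846 TPM and at 4664, 4844 and 5055 TPM, and RPS16, of the small subunit head, at 3878, 4973 and 4747 TPM and at 4408, 4465 and 5376 TPM. For both, replicate 2 was the highest of the A549-GFP libraries. The 10 most abundant members held between 28.1% and 30.4% of the member TPM in every library. Mean levels of the analysed members ran from 51.5 to 8456 TPM with a median of 1869.5 TPM, and 4 paralogs (RPL26L1, RPL39L, RPL22L1, RPL7L1) formed the lowest end with means under 60 TPM. The next lowest, RPL28, had a mean of 300.4 TPM.

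The differences with the lowest p-values were all upward and belonged mostly to large subunit members. RPL13A, also known from the GAIT complex that silences inflammatory mRNAs, stood at 3016, 2852 and 3963 TPM in A549-GFP and 3905, 3969 and 4963 TPM in A549-TIPARP. One A549-GFP library, replicate 3, lay within the A549-TIPARP values. The log2 fold change was 0.39 (SE 0.18, 95% interval -0.025 to 0.81, limma unadjusted p = 0.062, adjusted p = 0.994). It lay between 0.28 and 0.54 under all alternatives.

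RPL3, which reaches the peptidyl transferase centre, stood at 2481, 1803 and 3076 TPM in A549-GFP and 2902, 2822 and 3704 TPM in A549-TIPARP. A549-GFP replicate 2 was the lowest and A549-TIPARP replicate 3 the highest. Its log2 fold change of 0.38 (SE 0.22) became 0.17 without A549-GFP replicate 2. RPS3, at the mRNA entry of the small subunit, stood at 1106, 929 and 1359 TPM in A549-GFP and 1308, 1366 and 1529 TPM in A549-TIPARP. The fold change on the log2 scale was 0.32 (SE 0.18) with all libraries and 0.19 without A549-GFP replicate 2. RPL4, which lines the exit tunnel, stood at 3999.6, 2896 and 4343 TPM and at 4180.2, 4284 and 4903 TPM, and its log2 fold change of 0.27 became 0.093 in the same way. The values of RPS3 and RPL4 therefore overlapped between the lines. These 4 genes, with RPL36A and RPL22L1, were the 6 members past 1.2-fold, all higher in A549-TIPARP, where 35.6% of all analysed genes passed 1.2-fold in either direction. The count was 26 higher and 1 lower without A549-GFP replicate 3, where 54.1% of all analysed genes passed in either direction. It was 12 higher and 1 lower without A549-GFP replicate 1, against 41.4% of all genes. Without A549-GFP replicate 2 RPL13A and RPS14 were higher past that fold and RPS26 lower, against 38.4% of all genes. The count was 10, 11 and 4, all higher, without A549-TIPARP replicates 1, 2 and 3, against 38.0%, 43.2% and 34.3%.

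RPL7A and RPL24 were the 2 members without overlap between the lines. RPL24, which forms a bridge between the subunits, stood at 1662, 1449 and 1848 TPM in A549-GFP and 1849, 1941 and 1934 TPM in A549-TIPARP, so that the closest libraries of the lines stood at 1848 and 1849 TPM. RPL7A stood at 2569.5, 1944 and 2635 TPM and at 2656, 2745 and 2947 TPM, also with a narrow gap. Their log2 fold changes were 0.21 (interval -0.13 to 0.56) and 0.24 (interval -0.14 to 0.61), and they were 0.12 and 0.096 without A549-GFP replicate 2. RPL12, RPL10A and RPL17, of the stalk base, the opposite L1 stalk and the rim of the exit tunnel, completed the 10 members of lowest p with log2 fold changes of 0.23, 0.25 and 0.22, and the lines overlapped for each. Without A549-GFP replicate 2 these were 0.14, 0.087 and 0.10.

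**Figure D4:**
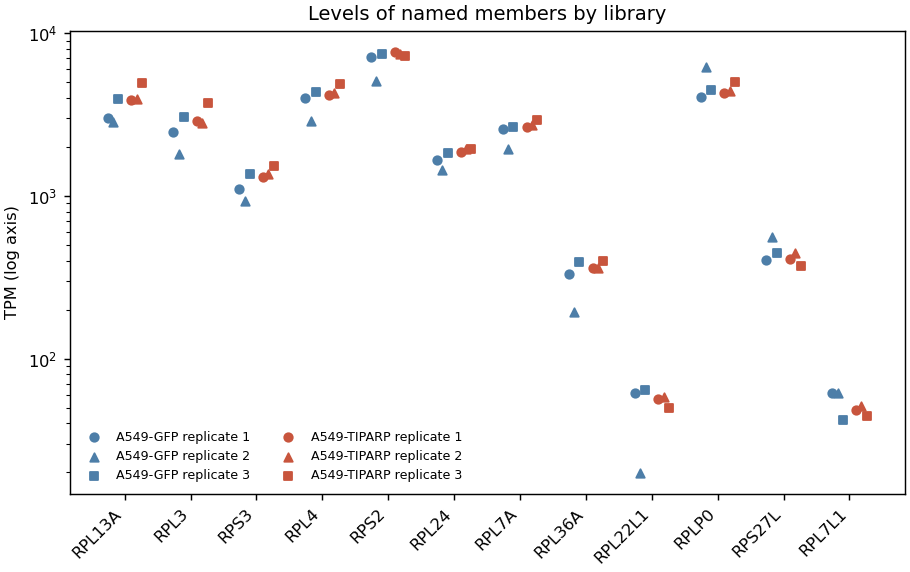
TPM of 12 members (log y axis) by library. Blue marks A549-GFP and red A549-TIPARP, and the circle, triangle and square are replicates 1, 2 and 3. The blue triangle, A549-GFP replicate 2, is the lowest point of RPL13A, RPL3, RPS3, RPL4, RPS2, RPL24, RPL7A, RPL36A and RPL22L1 and the highest of RPLP0 and RPS27L.

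Members with known roles outside the ribosome or in disease were not called either. RPL5 and RPL11, which bind MDM2 as part of the 5S particle, had log2 fold changes of 0.16 and 0.17 (SE 0.17 and 0.16), which were 0.058 and 0.055 without A549-GFP replicate 2. RPS6, the classic substrate of S6 kinase downstream of mTOR, stood at 4063, 4796 and 4541 TPM in A549-GFP and 4226, 4280.4 and 4895 TPM in A549-TIPARP, and its log2 fold change was 0.0002 (interval -0.34 to 0.34). RPSA, the laminin receptor precursor, was at 2521, 1768 and 2883 TPM and at 2754, 2786 and 2599.8 TPM, with the lowest value again in A549-GFP replicate 2. Its log2 fold change was 0.21, and 0.0084 without that library. RPL10, whose joining completes the large subunit, RPS14 and RPS19, affected in inherited or acquired anaemias, and RPS27A, made as a ubiquitin fusion, had log2 fold changes of 0.099, 0.17, 0.068 and 0.089. Without A549-GFP replicate 2 these were 0.22, 0.28, 0.16 and 0.086, and without A549-GFP replicate 1 they were -0.042, 0.018, -0.11 and 0.0089. For each of them the lines overlapped.

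Only 9 members had a lower mean in A549-TIPARP, and none of them was called. Beyond RPS27L, RPL7L1 and RPLP0, the lower means included those of RPS26, RPL41, RPL35, RPL36 and RPL26L1, at -0.054 to -0.019 on the log2 scale. RPS26, which contacts mRNA upstream of the start codon, was uneven in both lines, at 925, 585 and 976 TPM and at 840.5, 925 and 607 TPM. Its low libraries were replicate 2 of A549-GFP and replicate 3 of A549-TIPARP. The sign was upward for RPS26, RPL41 and RPL26L1 with a correction for GC content and after rescaling the libraries by their median ratio. RPS26 had a log2 fold change of -0.29 without A549-GFP replicate 2 and 0.13 without A549-TIPARP replicate 3. RPL41 had 0.088 and RPL26L1 0.11 without the same libraries, respectively.

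A549-GFP replicate 2 moved some members far and others the opposite way. It lay below the mean of the other A549-GFP libraries for 45 analysed members and above it for 38, with a median log2 difference of -0.042, while the median over all analysed genes was 0.38. The lowest log2 differences were those of RPL22L1 (-1.66), RPL39L (-1.02), RPL36A (-0.89), RPS26 (-0.70) and RPL14 (-0.69). The highest were those of RPLP0 (0.54) and RPS18 (0.47). Other TOP transcripts moved both ways in that library: of 26 other TOP mRNAs, 15 were lower in it than in the rest of the A549-GFP libraries and 11 higher, and of 12 snoRNA host genes 2 were lower and 10 higher. GAS5 stood at 790 TPM in that library against 220 and 310 TPM in the others of its line, ZFAS1 at 742 against 200 and 234 TPM, and TPT1 at 1684 against 676 and 723 TPM. On the log2 scale HNRNPA1 differed there by -1.15, NPM1 by -1.07, VIM by -0.95 and EEF1A1 by 0.15. EEF1A2 differed by 3.36, the highest of the 26 other TOP mRNAs. Its log2 fold change was 0.86, and 1.98 without that library. Whether these genes share anything beyond that library was not tested.

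RPL36A, near the exit site for tRNA, shares its gene region with a read-through entry whose level differed between libraries. The member stood at 332, 194 and 392 TPM in A549-GFP and 362, 359 and 396 TPM in A549-TIPARP, a log2 fold change of 0.34. Its read-through entry, RPL36A-HNRNPH2, stood at 40.9, 238 and 35.9 TPM in A549-GFP and 38.7, 38.6 and 41.9 TPM in A549-TIPARP. The entries summed to 373, 432 and 428 TPM and to 401, 398 and 438 TPM, and the log2 fold change of the sum was 0.0067. In A549-GFP replicate 2 the read-through entry held 55.0% of the sum, against 8.38% to 10.97% in the other 5 libraries. Without A549-GFP replicate 2 the log2 fold change was 0.045 for the member alone and 0.044 for the sum. Summing was chosen after the values were seen, and how reads were assigned to these entries was not tested.

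Similar sums hardly moved the other members that were summed with a read-through or pseudogene-named entry. RPL17 with RPL17-C18orf32 had a log2 fold change of 0.21 in place of 0.22, and RPS10 with RPS10-NUDT3 had 0.078 in place of 0.080. RPL13A and the pseudogene-named RPL13AP5, at 1173, 1162 and 1575 TPM in A549-GFP and 1484, 1538 and 1912 TPM in A549-TIPARP, gave 0.38 in place of 0.39. RPL13AP5 held between 27.5% and 29.0% of that sum in every library. Reads of near-identical copies may be split between such entries, and how the authors' software assigned them is not stated, so the level of RPL13A is uncertain.

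Ribosomal protein genes have many processed pseudogenes, and 1942 entries of the tables were named as pseudogenes of 78 members. Of these, 1923 were listed at 0 in all 6 libraries and 16 were analysed. Together they held 0.142%, 0.143% and 0.187% of the library TPM in A549-GFP and 0.174%, 0.183% and 0.219% in A549-TIPARP. As for the members, A549-GFP replicate 1 held the lowest share and A549-TIPARP replicate 3 the highest, and adding them changed the difference in share between the lines only to 1.19 points.

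The third comparison asked whether the paralogs, second genes that encode a close relative of a ribosomal protein, kept their ratio to the parent gene. Of 8 pairs, 6 could be tested. RPL3L and RPL10L were listed at 0 beside RPL3 and RPL10 at 2798 and 1420.0 TPM on average. No difference in the 6 ratios between the lines passed the test (exact permutation tests, two-sided, lowest p = 0.2, lowest adjusted p = 0.9 over 6 pairs), which cannot go below p = 0.1.

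RPS27L, a target of p53 and a relative of RPS27, stood at 401, 559 and 444 TPM in A549-GFP and 408, 443 and 373 TPM in A549-TIPARP. That was 20.7%, 22.04% and 19.0% of the level of RPS27 in A549-GFP and 17.7%, 19.98% and 13.8% in A549-TIPARP. The ratios overlapped through 1 library of each line, and the log2 difference was -0.28 (p = 0.2, exact) and -0.13 without A549-TIPARP replicate 3. RPL7L1, a nucleolar relative of RPL7, stood at 61.7, 61.4 and 42.0 TPM in A549-GFP and 48.6, 51.1 and 44.1 TPM in A549-TIPARP, at most 2.94% of RPL7. Its ratio differed by -0.41 (p = 0.3, exact), with A549-GFP replicate 3 among the A549-TIPARP values. It differed by -0.17 without A549-GFP replicate 2 and by -0.72 without A549-GFP replicate 3.

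RPL22L1, which can stand in for RPL22, stood at 61.4, 19.9 and 64.5 TPM in A549-GFP and 56.6, 58.5 and 49.8 TPM in A549-TIPARP. RPL22 itself was at 451, 398 and 503 TPM and at 471, 499.8 and 559.6 TPM. The low value in A549-GFP replicate 2 decided the direction: the log2 ratio differed by 0.16 with that library (p = 1, exact) and by -0.29 without it. RPL39L, otherwise known from male germ cells and some tumours, was likewise low there, at 61.99, 32.9 and 71.3 TPM and at 71.8, 60.3 and 41.9 TPM. It reached 0.944% to 2.35% of RPL39, and its difference of 0.046 (p = 0.9, exact) turned to -0.35 without A549-GFP replicate 2, to -0.19 without A549-TIPARP replicate 1 and to -0.00077 without A549-TIPARP replicate 2.

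RPL26L1 stood at 59.1, 56.6 and 60.1 TPM in A549-GFP and 64.1, 62.2 and 48.5 TPM in A549-TIPARP, with its lowest value in A549-TIPARP replicate 3. Its ratio to RPL26 differed by -0.15 (p = 0.7, exact), and by 0.059 without that library. RPL36AL was the exception in level, since it stood above its parent: at 676, 643 and 745 TPM in A549-GFP and 695, 742 and 739 TPM in A549-TIPARP it was 186% to 207% of RPL36A in 5 libraries and 331% in A549-GFP replicate 2. The difference of the log2 ratio was -0.26 with all libraries (p = 0.5, exact) and -0.014 without A549-GFP replicate 2.

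**Figure D5:**
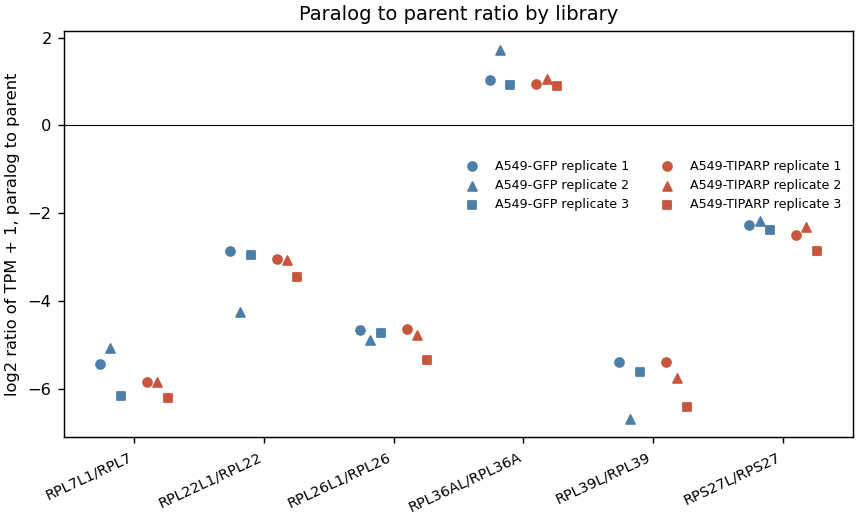
Log2 ratio of TPM + 1 of each paralog to its parent gene (y axis) for the 6 tested pairs, by library, with the same colours and shapes per replicate. RPL36AL alone lies above 0. A549-GFP replicate 2 (blue triangle) lies apart for RPL22L1, RPL36AL and RPL39L, and A549-TIPARP replicate 3 (red square) is the lowest A549-TIPARP point of each pair.

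Other genes that act with the ribosomal proteins were counted for comparison. Among 26 other TOP mRNAs, mostly translation factors, the mean was higher in A549-TIPARP for 21 and lower for 5, with a median log2 fold change of 0.16, and none was called. The elongation factor EEF1A1 (0.15, SE 0.15), the ribosome-bound scaffold RACK1 (0.15, SE 0.18) and the poly(A)-binding protein PABPC1 (0.22, SE 0.19, and 0.11 without A549-GFP replicate 2) are examples. VIM, the intermediate filament vimentin, was the only gene of the list with an unadjusted limma p under 0.05, at 396, 230 and 496 TPM in A549-GFP and 592, 725 and 704 TPM in A549-TIPARP. That is 1 of 26 genes, where 3.85% of all analysed genes passed. VIM and EIF3H, a subunit of the initiation factor eIF3, lay wholly higher in A549-TIPARP, 2 of 26 where 5.36% of all analysed genes did. The log2 fold change of VIM was 0.91, and 0.60 without A549-GFP replicate 2. That of EIF3H was 0.24 and 0.14. The list without that library had 20 higher and 6 lower means and a median of 0.11.

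Of 16 regulators of TOP translation, 15 were analysed, counted whether they promote or restrain it. The mean was lower in A549-TIPARP for 12 and higher for 3, with a median of -0.17. It was higher for 40.1% of all analysed genes. EIF4EBP1, an mTOR substrate that binds the cap-binding protein, was the only one without overlap, at 351, 850 and 369 TPM in A549-GFP and 322, 314 and 280 TPM in A549-TIPARP. It was 1 gene of 15 wholly lower in A549-TIPARP, where 3.54% of all analysed genes were, and it was not called (log2 fold change -0.65, SE 0.32, limma unadjusted p = 0.071). The value was -0.24 without A549-GFP replicate 2, and the list then had 6 higher and 9 lower means with a median of -0.074. MTOR and LARP1 had log2 fold changes of -0.15 (SE 0.23) and -0.22 (SE 0.21), which were -0.020 and -0.12 without that library. The cap-binding protein gene EIF4E was listed at 0 in all libraries.

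Of 12 snoRNA host genes, mostly noncoding TOP transcripts but with the protein-coding TAF1D among them, the mean was higher for 3 and lower for 9, with a median of -0.13. The direction turned without A549-GFP replicate 2, to 7 higher and 5 lower with a median of 0.16. SNHG15, at 42.4, 66.9 and 42.5 TPM in A549-GFP and 37.7, 35.97 and 28.3 TPM in A549-TIPARP, was the only one with an unadjusted limma p under 0.05 (limma with Benjamini-Hochberg adjustment, adjusted p = 0.994), 1 of 12 where 3.85% of all analysed genes passed. Its log2 fold change was -0.55, and -0.33 without A549-GFP replicate 2. Of 11 chaperones and import factors of ribosomal proteins, 10 were analysed, with 2 higher and 8 lower and a median of -0.16, which was -0.18 with the same counts without that library. These medians stand beside -0.066 over all analysed genes and 0.09 over the ribosomal protein genes. The counts of higher means stand beside 40.1% of all analysed genes, and 56.9% without A549-GFP replicate 2. No gene of the 4 lists passed the adjusted threshold.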

How the data were processed

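RNA was isolated with Trizol, and libraries were made with the TruSeq Stranded mRNA kit and sequenced paired-end on a NovaSeq instrument. Alignment was to the human transcriptome of hg38, in Strand NGS with its default parameters, and the authors deposited log2 TPM per gene, with a floor of 0 (TPM below 1 set to 1). The version, annotation release, use of strand and treatment of multiply mapped reads are not given in the sources used here. No counts were used here, so depth is unknown, no counting error or detection limit was computed, and the count-based tests planned for counts were not run.

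TPM was taken as 2 to the power of the deposited log2 value. Genes above 2 TPM in at least 1 of 6 libraries were fitted with limma 3.58.1 (R 4.3.3) on log2(TPM + 1) with a variance trend, without a block, and adjusted by Benjamini-Hochberg over all 13181 genes. Fold changes are differences of mean log2 values, A549-TIPARP minus A549-GFP, and understate changes of low genes. Shares and ratios were compared by exact permutation over libraries (scipy 1.17.1). Transcript features came from GENCODE 44, matched for 98.3% of genes, and sequences from RefSeq.

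Libraries were grouped by their titles. Named genes were the stalk members, the paralog pairs, members with named roles, the 5 largest rises and falls, the 5 highest and lowest levels and the 10 lowest p-values. GAS5, ZFAS1 and TPT1 in A549-GFP replicate 2, and the read-through and pseudogene-named entries, were picked with their values in view. Some genes are not reported here by name. The members and lists were chosen with earlier results of these data known. The fit was tested on simulated data.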

Additional observations from a re-analysis of the deposited data

How the results depend on the processing

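No member was called at an adjusted p under 0.05 under any of 18 alternatives: pseudocounts, filters, library scaling, variance model, GC or length correction, replicate block, or each library left out. The lowest adjusted p was 0.582. The limma count at an unadjusted p under 0.05 was 0 except with the replicate block (1, RPL13A) and without A549-GFP replicate 3 (3, RPS3, RPL13A and RPL3). The share of all analysed genes was 3.85% in the main fit. It is not given here for these settings, so whether the counts exceed it cannot be told. The median log2 fold change of the members was 0.16 after median-ratio rescaling, 0.17 after GC correction and 0.11 after length correction, and the means were higher for 80, 76 and 73 of 83 members. Centring each library on the members' median, chosen after seeing the data, gave -0.0097 and 39 of 83 higher, which that centring fixes by construction. Leaving out 1 library moved the median between 0.042 and 0.19, the difference in share between 0.429 and 2.01 points, and the log2 large to small subunit ratio between 0.0096 and 0.040. The paralog ratio differences ranged from -0.29 to 0.41 (RPL22L1/RPL22), -0.29 to 0.059 (RPL26L1/RPL26), -0.35 to 0.33 (RPL39L/RPL39), -0.41 to -0.014 (RPL36AL/RPL36A), -0.72 to -0.17 (RPL7L1/RPL7) and -0.40 to -0.13 (RPS27L/RPS27), with no call. Of 39 named members, 17 changed sign in some alternative, in 54 instances. Same-numbered libraries correlated at 0.29, -0.29 and -0.17 over the members. With 3 libraries per line, these values cannot tell whether same-numbered libraries share an experiment. The member share was higher in A549-TIPARP in each same-numbered pair. With the replicate block the difference in share stayed at 1.15 points (exact sign-flip p = 0.25, the smallest 3 pairs allow), and it changed no call. Precision is set by 3 libraries per line. Tests on counts were not run, as the deposited values are not counts.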
